A study of Caenorhabditis elegans with 14 samples.

Results

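Small RNAs of 21 to 26 nt were counted at 10 genes that encode Argonaute proteins acting outside nuclear RNAi: wago-1, wago-4, csr-1, prg-1, ergo-1, rde-1, alg-1, alg-2, alg-3 and alg-4. The genes were chosen by name, and all 10 were found by WormBase ID among the 20541 genes of the count table. The 12 libraries came from young adult Caenorhabditis elegans and fall into 5 groups. hrde-1;HC125 (strain HC995, n = 2) carries the Psid-1::gfp array of HC125 and a mutated hrde-1, and no label names the allele. HC125 (n = 4) carries Psid-1::gfp, in which the promoter of sid-1 drives gfp, and no hrde-1 mutation is named for it. The non-array lines of strain HC83 were de-silenced at generation F21 (n = 2) and silenced at generation F6 (n = 2), and they are called F21 and F6 from here on. N2 (n = 2) is the wild type. The labels describe neither the make-up of the array nor whether replicates were separate cultures, so the spread behind each p-value is that between libraries and may be technical.

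An Argonaute protein holds a small RNA and uses it as a guide to RNAs of matching sequence. In the worm germline, primary small RNAs held by Argonautes such as PRG-1, ERGO-1, ALG-3 and ALG-4 recruit RNA-dependent RNA polymerases, which copy the targeted messenger RNA into secondary small RNAs. Those are loaded into other Argonautes, among them WAGO-1, WAGO-4 and CSR-1. The messenger RNAs of the Argonaute genes can themselves be copied in this way. A read counted at wago-1 is a small RNA that matches the wago-1 gene. It is not a small RNA bound by the WAGO-1 protein, and it does not measure wago-1 messenger RNA.

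The reads assigned to genes numbered 451389 to 6379388 per library, a 14.1-fold range, with N2 and 1 library each of HC125 and F21 among the shallowest. Levels are given in CPM, counts per 1e+06 counts of a library after scaling by TMM. Fewer animals or cells of a kind and fewer small RNAs per cell cannot be told apart in these whole-animal libraries. Summed counts at 31 major sperm protein genes, named msp here, came to 1029.7 and 710.02 CPM in hrde-1;HC125, 1324.6, 1216, 691 and 417 CPM in HC125, 403 and 616 CPM at F21, 313 and 290.2 CPM at F6, and 597 and 1798 CPM in N2. HC125 replicates 1 and 2 and N2 replicate 2 were the highest and are called the 3 libraries that stand apart, and the F6 libraries were the lowest. The 17 oocyte and germline genes summed to 3424 and 3751 CPM in hrde-1;HC125, against 2004 to 2855 CPM over the other 10 libraries, and none of the 17 was at 0 counts in any library.

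The 10 genes lie on 6 chromosomes (WBcel235). wago-1 (WBGene00011061) lies at I:7235384-7238792 on the plus strand and prg-1 (WBGene00004178) at I:7585329-7588367 on the minus strand. wago-4 (WBGene00010263) lies at II:12919551-12923377 and alg-2 (WBGene00000106) at II:873212-879885, both on the plus strand. csr-1 (WBGene00017641) lies at IV:7957267-7962157 and alg-3 (WBGene00011910) at IV:11704246-11708264, both on the plus strand. rde-1 (WBGene00004323) lies at V:9987916-9991642 on the minus strand and ergo-1 (WBGene00019971) at V:1008803-1018352 on the plus strand. alg-1 (WBGene00000105) lies at X:13949110-13956261 on the plus strand and alg-4 (WBGene00006449) at III:9887209-9891424 on the minus strand. All 10 are protein-coding, with 2666 bases of exon in prg-1 to 6696 in alg-1. The exons of csr-1 share 438 bases with frpr-10 on the same strand, which had 2 counts over all 12 libraries. Those of prg-1 and ergo-1 share 12 and 17 bases with genes on the opposite strand, D2030.12 and pei-2. alg-1 shares 96 bases with a snoRNA gene that is not in the count table. alg-1 and alg-2 are paralogs of each other, as are alg-3 and alg-4, and how the counting treated reads that match more than 1 place is unknown here, so counts within each pair are uncertain to that extent.

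Per length of exon the levels spanned a 207-fold range, and prg-1, csr-1 and wago-4 stood highest. Over all 12 libraries prg-1 had 414 CPM per kb, csr-1 288 CPM per kb and wago-4 274 CPM per kb. Each of these was above 95.5% or more of the 10351 tested genes with a known exon length. wago-1 followed with 75.5 CPM per kb, above 84.1% of genes. rde-1 had 40.1 CPM per kb and ergo-1 20.5 CPM per kb, above 69.7% and 50.2% of genes. The alg genes were lowest, with 6.54 CPM per kb in alg-2, 2.82 in alg-3, 2.19 in alg-1 and 2.00 in alg-4, above 26.2%, 12.7%, 8.88% and 7.65% of genes. Counted together, the 10 genes took 0.353% and 0.389% of the counts in hrde-1;HC125, 0.346% to 0.380% in HC125, 0.344% and 0.361% at F21, 0.336% and 0.346% at F6, and 0.305% and 0.391% in N2. The N2 libraries held both the lowest and the highest share, and both hrde-1;HC125 libraries lay above both F6 libraries.

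**Figure D1:**
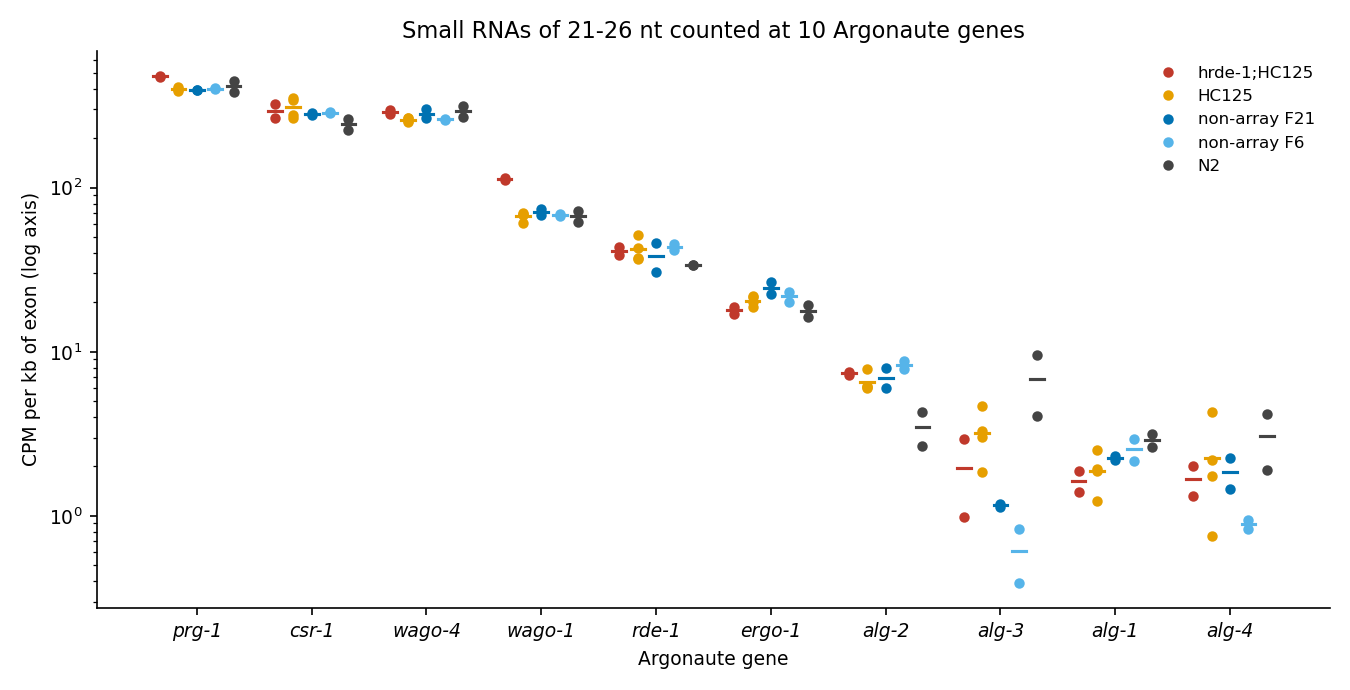
Level of small RNAs at each Argonaute gene, in CPM per kb of exon on a log axis, with 1 point per library, a line at each group's mean and the genes ordered by their mean over the 12 libraries. prg-1, csr-1 and wago-4 sit between 223 and 479 CPM per kb in every library, while alg-3, alg-1 and alg-4 sit at 9.55 CPM per kb or less.

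Most of the 10 genes varied little across the 12 libraries. The standard deviation of log2 CPM had a median of 0.25 over the 10 genes, against 0.45 over the 10470 genes tested. wago-4 and prg-1 were the steadiest, at 0.10 and 0.11, with 0.592% and 0.946% of genes steadier, and their highest library stood 1.25-fold and 1.26-fold above their lowest. alg-3 was the least steady, at 1.11, above 89.98% of genes, with a 24.3-fold range. Its counts were few, from 2 to 58 per library, whereas wago-4 and prg-1 had at least 414 and 460. The spread was not set against that of genes with like counts, so it may follow depth. All 10 genes passed the filter on low counts.

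A test of any difference among the 5 groups (edgeR quasi-likelihood F test, Benjamini-Hochberg over 10470 genes, two-sided, threshold 0.05) called 2 of the 10 genes, wago-1 (adjusted p = 0.00154) and alg-3 (adjusted p = 0.0075). Over all genes 16.9% were called, so the share of the 10 genes lay near that of the table. Without N2 replicate 2, 1 gene was called, wago-1, and without hrde-1;HC125 replicate 2, 1 gene, alg-3.

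wago-1 encodes a worm-specific Argonaute of germ granules that holds secondary small RNAs against transposons, pseudogenes and other silenced genes. Its small RNAs came to 338 and 348 CPM in hrde-1;HC125, 186, 209, 216 and 212 CPM in HC125, 207 and 227 CPM at F21, 210.1 and 207 CPM at F6, and 188 and 221 CPM in N2. Both hrde-1;HC125 libraries lay above all 10 others, and the other 4 groups overlapped with each neighbour in the order F21, F6, HC125, N2. Against HC125 the rise was 1.66-fold, a log2 fold change of 0.73 ± 0.12 (SE, edgeR adjusted p = 0.000311, higher in 2 of 2 libraries than in any of 4). Against N2 it was 0.74 ± 0.15 (SE, edgeR adjusted p = 0.0024). HC125, F6 and F21 differed from N2 by 0.01 ± 0.14, 0.02 ± 0.15 and 0.06 ± 0.16 at wago-1 (log2, SE), and none of these was called (adjusted p = 0.996, 0.977 and 0.895 by edgeR). Among libraries of like depth, hrde-1;HC125 replicate 2 (3881568 reads) had 348 CPM, against 212 CPM in HC125 replicate 4 (3741687 reads) and 207 CPM in both F21 replicate 1 and F6 replicate 2.

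wago-4 encodes a germline Argonaute that carries inherited RNAi across generations. Its small RNAs were at 946 and 997 CPM in hrde-1;HC125, 892, 859.9, 849.7 and 895 CPM in HC125, 895 and 1013 CPM at F21, 870.4 and 887 CPM at F6, and 915 and 1066 CPM in N2. The 5 group means ran from 874 CPM in HC125 to 990.5 CPM in N2. Neighbouring groups in the order of the means overlapped except that both F21 libraries lay above both F6 libraries, the nearest being 895 and 887 CPM. Among groups further apart in that order, all HC125 and F6 libraries lay below both N2 libraries. Both hrde-1;HC125 libraries lay above all those of HC125. No comparison called wago-4, and its log2 fold changes lay between -0.18 and 0.15.

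csr-1 encodes an Argonaute whose secondary small RNAs match germline-expressed genes and which is needed for fertility. Its small RNAs came to 971 and 1182 CPM in hrde-1;HC125, 978, 1024, 1299.7 and 1255 CPM in HC125, 1011 and 1049.9 CPM at F21, 1044 and 1061 CPM at F6, and 820 and 966 CPM in N2. Every library outside N2 was above both N2 libraries, the nearest being hrde-1;HC125 replicate 1 at 971 CPM, against 966 CPM in N2 replicate 2. The share of all genes that stand apart from N2 in this way is not given, for csr-1 or for the other genes. The difference from N2 was 0.35 ± 0.15 in HC125 on the log2 scale (SE, edgeR adjusted p = 0.412) and smaller in the other groups, and it was not called. HC125 replicates 1 and 2, which had more small RNAs at msp genes than the other HC125 libraries, were the lower pair at csr-1. N2 replicate 2, with the most at msp genes, was the higher N2 library at csr-1. Leaving out these 3 libraries takes away the lower HC125 values and the higher N2 value, which by itself widens the difference. It also leaves a single N2 library, assumed to vary like the other groups. The log2 difference from N2 was then 0.66 in HC125 and 0.41 in hrde-1;HC125. Over the 19 and 20 alternatives tried, csr-1 was called under that omission only. The adjusted p reached 0.934 for HC125 and 0.853 for hrde-1;HC125.

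prg-1 encodes the Piwi protein of the worm, which holds piRNAs in the germline. Its small RNAs were at 1262 and 1277 CPM in hrde-1;HC125, 1036, 1088, 1064 and 1069.7 CPM in HC125, 1051 and 1056 CPM at F21, 1064 and 1073 CPM at F6, and 1016 and 1190.2 CPM in N2. The hrde-1;HC125 libraries were again above all others, but the difference from HC125 was 0.25 ± 0.12 on the log2 scale (SE) and was not called (edgeR adjusted p = 0.169). It came to 0.13 when libraries were scaled by their totals alone. Those of the other 4 groups overlapped with their neighbours in the order of the means, and both F21 libraries lay below both F6 libraries.

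**Figure D2:**
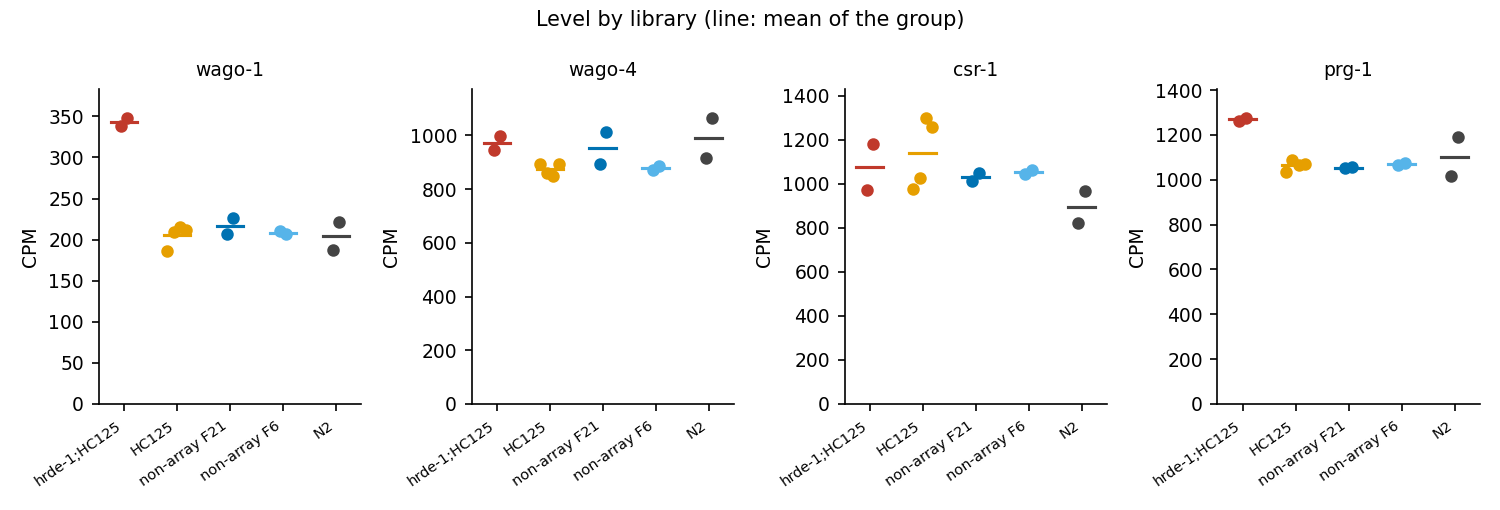
Small RNAs in CPM, from 0 up, at wago-1, wago-4, csr-1 and prg-1 in each library of the 5 groups, with a line at each group's mean. At wago-1 the hrde-1;HC125 libraries (338 and 348 CPM) stand apart from all others (186 to 227 CPM), while at wago-4 and csr-1 the hrde-1;HC125 libraries lie within the range of the others.

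ergo-1 encodes an Argonaute of the germline and embryo that holds primary small RNAs against duplicated and other genes. Its small RNAs came to 62.5 and 68.5 CPM in hrde-1;HC125, 68.5, 78.6, 79.6 and 73.1 CPM in HC125, 81.8 and 96.9 CPM at F21, 73.9 and 84.9 CPM at F6, and 70.7 and 59.2 CPM in N2. The means followed the order F21, F6, HC125, hrde-1;HC125, N2, and each group overlapped with its neighbour. All F21 and F6 libraries lay above both N2 libraries, while HC125 and hrde-1;HC125 overlapped with N2. The log2 difference of F21 from N2, 0.45 ± 0.20 (SE), was the widest of its 6 comparisons and was not called (edgeR adjusted p = 0.329).

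rde-1 encodes the Argonaute that receives small RNAs cut from double-stranded RNA and starts exogenous RNAi. Its small RNAs were at 125 and 139 CPM in hrde-1;HC125, 118, 119.9, 139 and 165 CPM in HC125, 148 and 98.8 CPM at F21, 133 and 145 CPM at F6, and 108 and 109 CPM in N2. All neighbours in the order of the means overlapped. All libraries of hrde-1;HC125, HC125 and F6 nevertheless lay above both N2 libraries, while those of F21 lay on both sides of N2. The log2 fold changes of rde-1 lay between -0.12 and 0.35, and none was called.

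alg-1 and alg-2 encode the main Argonautes that hold microRNAs. At alg-1 counts were few, from 6 to 75 per library, and the level came to 12.5 and 9.40 CPM in hrde-1;HC125, 8.29 to 16.9 CPM in HC125, 14.7 and 15.5 CPM at F21, 19.6 and 14.5 CPM at F6, and 17.7 and 21.2 CPM in N2. Neighbouring groups in the order of the means overlapped. All libraries of hrde-1;HC125, HC125 and F21 nevertheless lay below both N2 libraries, while F6 overlapped with N2. The log2 fold changes of alg-1 lay between -0.84 (hrde-1;HC125 against N2) and -0.17 (hrde-1;HC125 against HC125), and none was called. At alg-2 the level was 30.1 and 31.2 CPM in hrde-1;HC125, 25.7, 25.3, 24.9 and 32.7 CPM in HC125, 24.8 and 32.9 CPM at F21, 36.3 and 32.5 CPM at F6, and 11.05 and 17.9 CPM in N2. Every library outside N2 lay above both N2 libraries, which held 5 and 16 counts.

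alg-2 rose in hrde-1;HC125 against N2, by 1.00 ± 0.31 on the log2 scale (SE, edgeR adjusted p = 0.0361, higher in 2 of 2 libraries). The call did not hold under 12 of 20 alternatives, with values of 0.76 to 1.49 and adjusted p of 0.0359 to 0.188. It ended without N2 replicate 1 (0.76), N2 replicate 2 (1.49), hrde-1;HC125 replicate 1 (1.03) or replicate 2 (0.93), and F6 replicate 1 (1.00) or replicate 2 (0.95). At F6 the difference of alg-2 from N2 was 1.16 ± 0.31 (SE, edgeR adjusted p = 0.0685), and it was called in 3 of 19 alternatives, which include the block for the replicate number (1.17) and the omission of HC125 replicate 4 (1.14). In HC125 and at F21 the differences were 0.86 ± 0.30 and 0.83 ± 0.34 (SE, edgeR adjusted p = 0.324 and 0.305).

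alg-3 and alg-4 encode Argonautes that act during sperm production. Small RNAs at alg-3 fell at F6 against N2. They came to 9.69 and 3.22 CPM in hrde-1;HC125, 10.7, 15.2, 9.95 and 6.03 CPM in HC125, 3.73 and 3.87 CPM at F21, 1.29 and 2.73 CPM at F6, and 13.3 and 31.3 CPM in N2. The F6 libraries were the lowest and were below those of every other group, and N2 replicate 2 was the highest. The F6 values rest on 4 and 10 counts, with 95% exact Poisson intervals of 0.35 to 3.29 and 1.31 to 5.02 CPM, and those of N2 on 6 and 28 counts, with intervals of 4.87 to 28.9 and 20.8 to 45.2 CPM. The intervals cover counting error only. They may be too narrow even for that, because amplified reads that carry no molecular identifiers need not be separate molecules.

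The fall of alg-3 at F6 against N2 was 3.49 ± 0.67 on the log2 scale (SE, edgeR adjusted p = 0.014, lower in 2 of 2 libraries). It had an adjusted p of 9.61e-07 to 0.367 over 19 alternatives, and it ended without N2 replicate 2 (-2.65), F6 replicate 1 (-3.05) or F6 replicate 2 (-4.17), without the 3 libraries that stand apart (-2.62) and by limma-voom (-3.53, adjusted p = 0.0603). In hrde-1;HC125 against N2 the fall of alg-3 was 1.82 ± 0.59 (SE, edgeR adjusted p = 0.0409). There the call ended in 9 of 20 alternatives (adjusted p of 0.00686 to 0.553). Without N2 replicate 2 the value was -0.97, without hrde-1;HC125 replicate 2 it was -1.31, without HC125 replicate 3 -1.79, without F6 replicate 1 -1.82, without F6 replicate 2 -1.86 and without F21 replicate 2 -1.79. Without the 3 libraries that stand apart it was -0.95, and without hrde-1;HC125 replicate 1 it was -2.83 and still called. Beside it, 3 of the 12 tested sperm genes were called lower and 0 higher in hrde-1;HC125 against N2, where 17.7% of all genes were called. All 12 had a log2 fold change below 0, with a median of -1.12. Of the 31 msp genes, 30 had one below 0, with a median of -0.55, and 0 were called by edgeR, with 0 at an unadjusted p under 0.05. At F21 the difference of alg-3 from N2 was -2.63 ± 0.70 (SE, edgeR adjusted p = 0.16), and in HC125 it was -1.24 ± 0.53 (SE, edgeR adjusted p = 0.416).

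At alg-4 the level was 7.01 and 4.57 CPM in hrde-1;HC125, 14.98, 7.60, 6.08 and 2.62 CPM in HC125, 5.06 and 7.75 CPM at F21, 2.89 and 3.28 CPM at F6, and 6.63 and 14.5 CPM in N2. N2 and HC125 overlapped widely, and F6 was the lowest group by its mean of 3.08 CPM. No comparison called alg-4. The difference of F6 from N2 was -1.85 ± 0.71 (SE, edgeR adjusted p = 0.163). Summed small RNAs at the 31 msp genes were 313 and 290.2 CPM at F6, against 597 and 1798 CPM in N2. There 2 of the 31 were called lower, beside 1.43% of all genes called in either direction. All 31 had a log2 fold change below 0, with a median of -2.15. An unadjusted p under 0.05 was found at 29 of them, and at 2053 of the 10470 genes tested. At a separate list of 14 sperm genes the sums were 203 and 225 CPM at F6, against 327 and 547 CPM in N2, and 0 of the 12 tested were called by edgeR, with 4 at an unadjusted p under 0.05 and a median log2 fold change of -1.90. The lowest sum of that list was 138 CPM in hrde-1;HC125 replicate 2, while replicate 1, at 216 CPM, lay above F6 replicate 1. Of those 14 genes, 0 to 1 were at 0 counts at F6 and 0 to 4 in N2. The part of sperm content in the results at alg-3 and alg-4 was not tested.

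**Figure D3:**
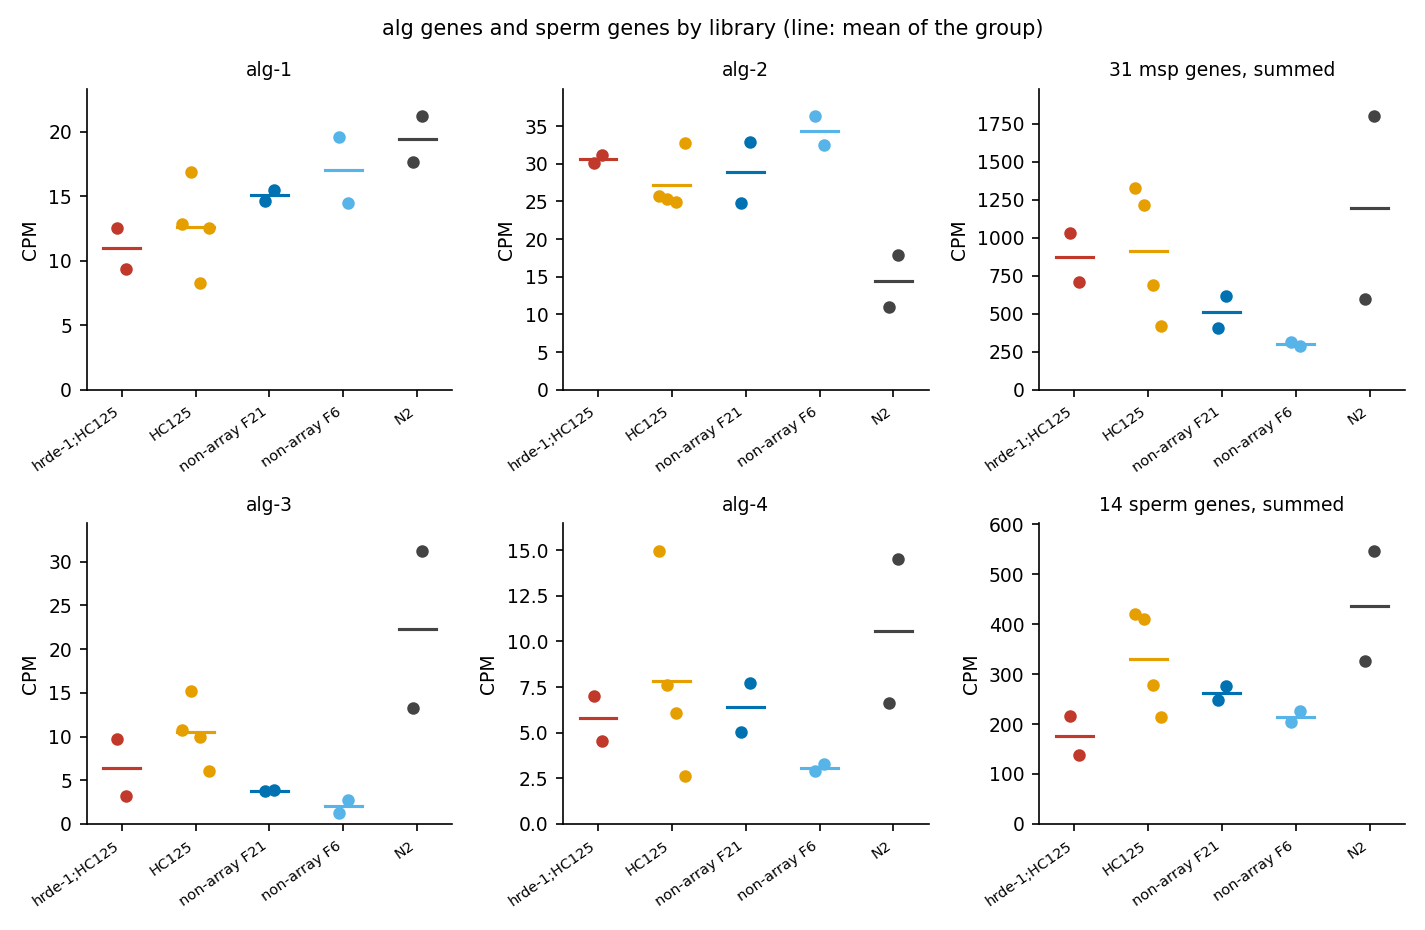
Small RNAs in CPM, from 0 up, at the 4 alg genes and summed over 31 msp genes and over 14 other sperm genes, with 1 point per library and a line at each group's mean. alg-2 is lowest in N2 (11.05 and 17.9 CPM), whereas alg-3 is highest in N2 replicate 2 (31.3 CPM), which also has the highest sums at msp and sperm genes (1798 and 547 CPM).

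The strain with mutated hrde-1, hrde-1;HC125, was set against HC125. The 2 groups also differed in depth and in summed counts at oocyte and germline genes (3424 and 3751 against 2215 to 2855 CPM). The mutation, other differences of the strains and germline content cannot be told apart here. Of the 10 genes 1 was called, wago-1, which was higher, and over all genes 17.0% were called, so the share of the 10 genes was no larger than that of the table. The log2 fold changes of the other 9 genes lay between -0.58 (alg-3) and 0.25 (prg-1). The median over the 10 genes was -0.08, against -0.03 over all tested genes, and the median size regardless of sign was 0.16, against 0.35. With libraries scaled by their totals alone the median of all genes moved by -0.12, and wago-1 was still called at 0.61. None of the 10 fold changes turned its sign under that scaling or by DESeq2.

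In hrde-1;HC125 against N2, 3 of the 10 genes were called, wago-1 and alg-2 higher and alg-3 lower, and 17.7% of all genes. The comparison shares its hrde-1;HC125 libraries with the one above. Of the 3, only wago-1 was called by DESeq2, and without the 3 libraries that stand apart the called genes were wago-1 and csr-1. The median over the 10 genes was 0.12, against -0.01 over all tested genes, and the median size regardless of sign was 0.51, against 0.56.

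For HC125 against N2, 0 of the 10 genes were called by edgeR, 3 had an unadjusted p under 0.05 (alg-2, alg-3 and csr-1), and DESeq2 and limma-voom each called 0. Over all genes 0.506% were called by edgeR, and 1101 of 10470 had an unadjusted p under 0.05. The median over the 10 genes was -0.02, against 0.01 over all tested genes, and the median size regardless of sign was 0.35, against 0.32.

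The silenced line at F6 was set against N2. Here 1 of the 10 genes was called, alg-3, and 1.43% of all genes, with a median of -0.02 over the 10 genes and 0.06 over all. The median size regardless of sign was 0.27, against 0.37. F21 against N2 had 0 of the 10 genes called by edgeR, DESeq2 or limma-voom, beside 0.201% of all genes by edgeR. An unadjusted p under 0.05 was found at 3 of the 10 (alg-2, alg-3 and ergo-1), and at 1489 of the 10470 genes tested. At F21 the median size regardless of sign was 0.32 over the 10 genes, against 0.37 over all. These comparisons and that of HC125 share the N2 libraries.

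The de-silenced F21 line was set against the silenced F6 line. By edgeR 0 of the 10 genes were called, beside 0.143% of all genes, and DESeq2 and limma-voom each called 0. An unadjusted p under 0.05 was found at 0 of the 10, and at 290 of the 10470 genes tested. The log2 fold changes ran from -0.34 (alg-2) to 0.89 (alg-4), with a median of 0.01 over the 10 genes and -0.01 over all tested genes. At wago-1, wago-4, csr-1 and prg-1 they were 0.05 ± 0.15, 0.11 ± 0.14, -0.03 ± 0.17 and -0.02 ± 0.14 (SE), and that of prg-1 was 0.01 with libraries scaled by their totals alone. The median size regardless of sign was 0.13 over the 10 genes, against 0.18 over all tested genes.

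**Figure D4:**
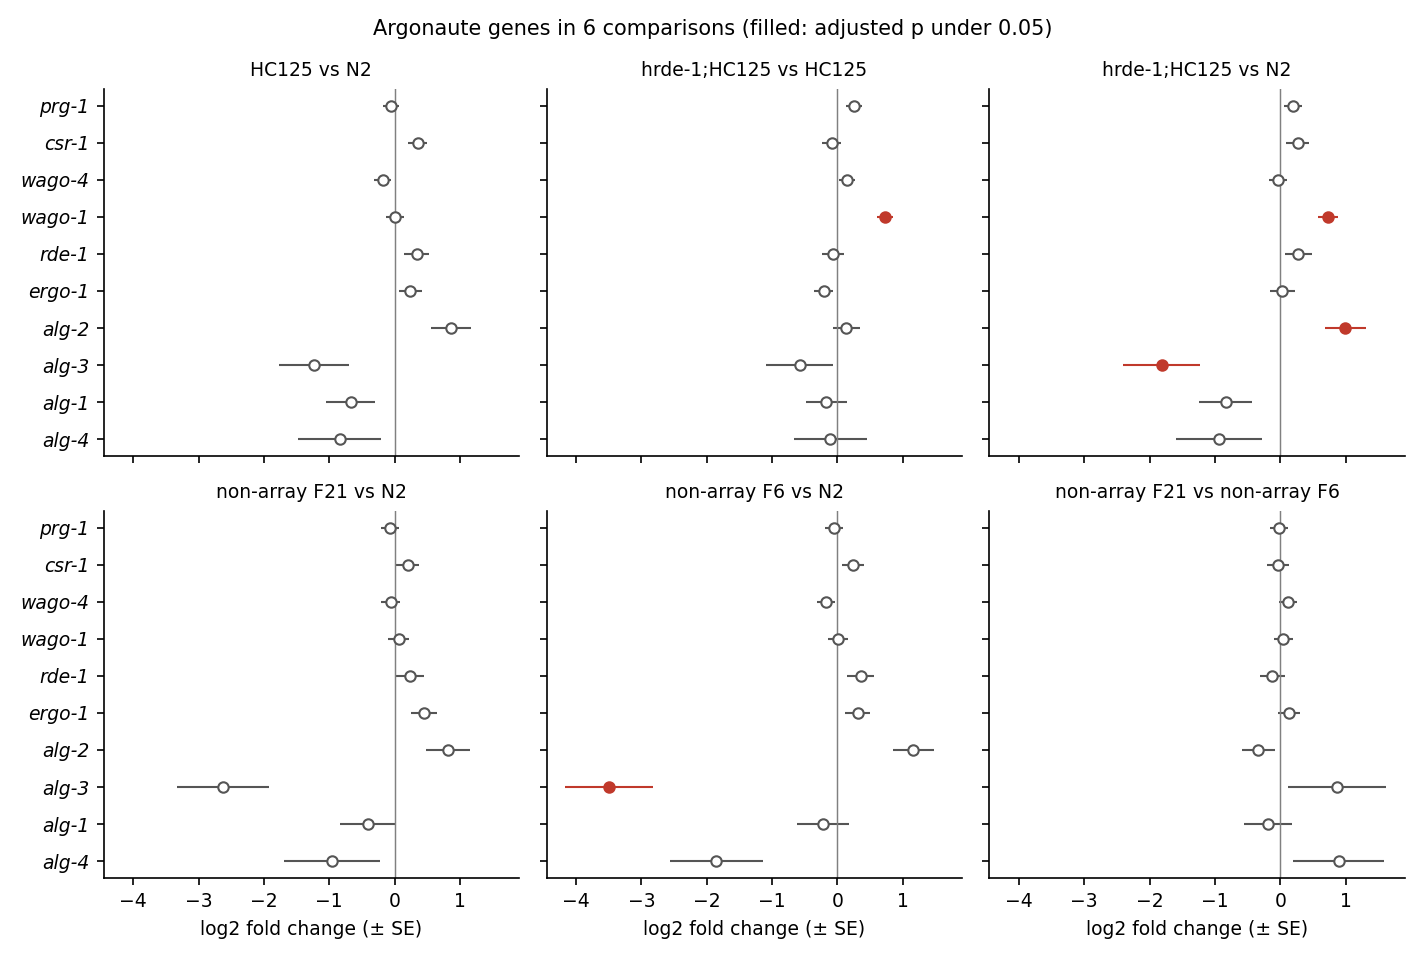
Log2 fold change with its SE at each of the 10 Argonaute genes in the 6 comparisons, with filled points where the edgeR adjusted p was under 0.05. wago-1 is the filled point in hrde-1;HC125 against HC125 (0.73 ± 0.12), alg-3 the one at F6 against N2 (-3.49 ± 0.67), and error bars are widest at alg-3 and alg-4.

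A list of 13 other Argonaute genes was read beside these 10. Of the 13, 11 were tested, and wago-10 and wago-11, with at most 14 and 9 counts per library, were not. In hrde-1;HC125 against HC125, 1 of the 11 was called, beside 17.0% of all genes. The called gene was hrde-1 itself, which encodes the nuclear Argonaute that was mutated. Small RNAs counted at hrde-1 fell to 504 ± 48.9 CPM in hrde-1;HC125, against 1008 ± 212 CPM in HC125 (SD, n = 2 and 4), by 1.01 ± 0.17 on the log2 scale (SE, edgeR adjusted p = 0.000254). These reads do not check the mutation. ppw-2, which encodes the Argonaute also called WAGO-3, was at 822 ± 13.7 CPM in hrde-1;HC125 and 649 ± 23.8 CPM in HC125 (SD, n = 2 and 4) and was not called (log2 0.34 ± 0.13, SE, edgeR adjusted p = 0.104). sago-1 had 1 to 18 counts per library and missed the threshold (log2 -1.85, edgeR adjusted p = 0.0500164). Both were named after their values were seen.

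Against N2, hrde-1;HC125 had 2 of the 11 other Argonaute genes lower, hrde-1 (log2 -0.73, edgeR adjusted p = 0.012) and wago-5 (log2 -1.21, edgeR adjusted p = 0.0214), beside 17.7% of all genes, a like share. In HC125, at F6 and at F21 against N2, 0 of the 11 were called by edgeR or DESeq2. Over all genes edgeR called 0.506%, 1.43% and 0.201% there, shares too small to set the 11 genes apart. In each, 1 of the 11 had an unadjusted p under 0.05, beside 1101, 2053 and 1489 of the 10470 genes tested. F21 against F6 had 0 called by either tool and 0 unadjusted, beside 0.143% of all genes called by edgeR. The median log2 fold change of the 11 in hrde-1;HC125 against HC125 was -0.17.

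**Figure D5:**
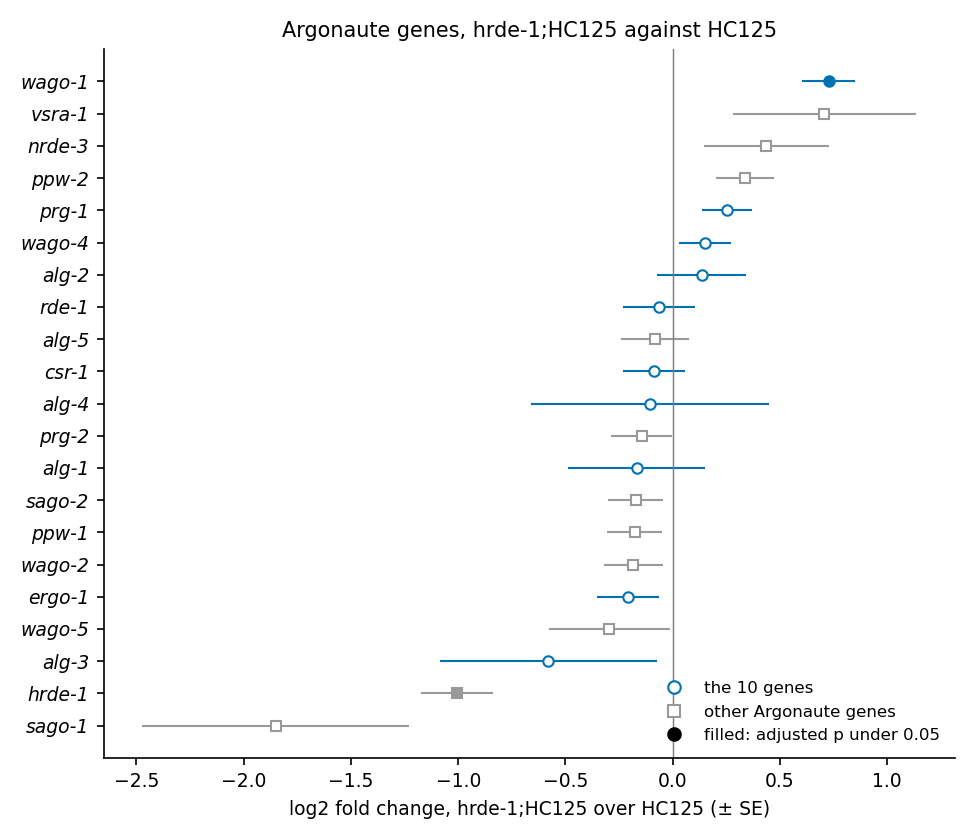
Log2 fold change with its SE in hrde-1;HC125 over HC125 at the 10 Argonaute genes (circles) and 11 other tested Argonaute genes (squares), with filled symbols where the edgeR adjusted p was under 0.05. wago-1 is highest at 0.73 and called, hrde-1 is called at -1.01, and sago-1 is lowest at -1.85 with a wide error.

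Among 25 partners of Argonautes and germ granule genes, all tested, 3 were higher and 1 lower in hrde-1;HC125 against HC125, where 17.0% of all genes were called, a like share. The higher ones were cgh-1, an RNA helicase of germ granules (log2 0.72 ± 0.14, SE, edgeR adjusted p = 0.00131), pid-1, a factor of piRNA production (0.82 ± 0.19, SE, edgeR adjusted p = 0.00448), and dcr-1, which encodes Dicer (0.42 ± 0.13, SE, edgeR adjusted p = 0.0336). dcr-1 was named after its value was seen. parn-1, an RNA nuclease that trims piRNA ends, was lower, at 489 ± 63.4 CPM in hrde-1;HC125 and 737 ± 87.5 CPM in HC125 (SD, n = 2 and 4, log2 -0.59 ± 0.14, SE, edgeR adjusted p = 0.00649). cgh-1 came to 481 ± 33.5 CPM in hrde-1;HC125 and 289 ± 46.8 CPM in HC125 (SD, n = 2 and 4). Against N2, 5 were higher and 1 lower in hrde-1;HC125, beside 17.7% of all genes, and the smallest adjusted p were those of cgh-1, pid-1 and parn-1. DESeq2 called 3 of the 25 there and limma-voom 4, in place of 6. In the other 4 comparisons 0 of the 25 were called by edgeR or DESeq2, with 2, 2, 2 and 0 at an unadjusted p under 0.05 in HC125, F6 and F21 against N2 and in F21 against F6. Over all genes edgeR called 0.506%, 1.43%, 0.201% and 0.143% in these 4. An unadjusted p under 0.05 was found at 1101, 2053, 1489 and 290 of the 10470 genes tested. The oocyte and germline list, whose sum was also highest in hrde-1;HC125, had 8 of 17 genes called higher and 0 lower there against HC125, and 11 higher and 0 lower against N2. Its part in the result at wago-1 was not tested.

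Genes with a pattern like that of wago-1 or alg-3 over the 12 libraries were sought among 7295 other tested genes with a mean of at least 10 CPM, by Pearson's r of log2 CPM, as a description. Nearest to wago-1 were Y54G2A.11 (r = 0.984), ztf-28 (r = 0.979) and snpc-3.2 (r = 0.979). Y54G2A.11 averaged 404 CPM in hrde-1;HC125 and 6.33 CPM in HC125, and snpc-3.2 averaged 2005 CPM in hrde-1;HC125 and 1229 CPM in HC125. Nearest to alg-3 were gskl-2 (r = 0.959), T23F11.2 (r = 0.950) and C35E7.9 (r = 0.944). gskl-2 averaged 6.94 CPM at F6 and 53.5 CPM in N2. The 12 points share libraries of unequal depth and only 5 groups.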

How the data were processed

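Small RNAs were analysed in 12 libraries, made from RNA treated with polyphosphatase per the labels' protocols. The authors deposited raw counts of reads per gene, not normalized, in a single table whose name gives reads of 21 to 26 nt. Bowtie2 and HTSeq are named in the submitters' processing notes without versions, and genome build, strand setting and treatment of multiple matches are unknown. Another 2 libraries, labelled 5'-dependent, are not analysed here. Names, positions and exon lengths came by gene ID from Ensembl release 115 (WBcel235), which held 20194 of 20541 IDs, and for 3 pseudogenes from RefSeq.

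edgeR 4.0.16 in R 4.3.3 was run after filterByExpr, which asked for a minimum count of 10 and a total of 15. TMM scaling and 1 model of 5 groups left 7 residual degrees of freedom. The robust quasi-likelihood F test was two-sided, with Benjamini-Hochberg adjustment over 10470 genes and a threshold of 0.05, and was tested on simulated counts. SEs were derived from F. Alternatives were DESeq2 1.42.0, limma-voom (limma 3.58.1), library size alone, no filter, omitted libraries, a replicate block and fits of only 2 groups. All 10 genes were named, with 3 genes of like pattern for each that differed among groups and up to 3 called genes per list. The genes and lists were chosen with earlier results of these data known. A level of 3 counts equals 0.501 CPM at the greatest depth and 6.63 CPM at the lowest.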

Additional observations from a re-analysis of the deposited data

Results flagged for a closer look

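Among the 4 HC125 libraries, small RNAs at alg-2 came to 32.7 CPM in replicate 4, above the other 3 libraries, which lay between 24.9 and 25.7 CPM. The gap took 0.898 of the range of the group, above the critical value of 0.829. This was 1 of 10 genes examined in this way, and chance alone sets apart about 1 in 20 groups. The 95% exact Poisson interval of replicate 4, 27.3 to 39.0 CPM, overlapped those of the other 3 libraries. These were 13.3 to 44.9, 17.1 to 36.2 and 18.1 to 33.3 CPM in replicates 1, 2 and 3.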

How the results depend on the processing

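The call of wago-1 in hrde-1;HC125 held in all 19 alternatives against HC125 (log2 0.61 to 0.79) and all 20 against N2 (0.62 to 0.89). None of the fold changes called in some fit turned its direction, but values near 0 did, such as prg-1 at F21 against F6 and wago-1 at F6 against N2 (0.02, and -0.04 by library size alone). With 1 library left out at a time, the number of the 10 genes called ran from 1 to 3 in hrde-1;HC125 against N2, 0 to 2 at F6 against N2 and 1 to 2 over the 5 groups, and was 1 throughout in hrde-1;HC125 against HC125 and 0 throughout in HC125 against N2, F21 against N2 and F21 against F6. In hrde-1;HC125 against N2, 1 gene was called by DESeq2 and 1 with only those 2 groups in the fit, in place of 3. At F6 against N2, 2 were called with no low-count filter, 0 by limma-voom and 0 without the 3 libraries that stand apart, in place of 1. At F21 against N2, 1 was called with no low-count filter (alg-3), in place of 0, and in HC125 against N2, 1 without the 3 libraries that stand apart (csr-1). Over the 5 groups, limma-voom called 1 gene in place of 2. The cause of these changes was not tested.

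Whether equal replicate numbers pair libraries was not settled. Deviations of same-numbered libraries from their group means correlated at -0.254 to 0.312. In a group of 2 libraries the deviations mirror each other, so these correlations cannot exclude pairing. With the replicate number as a block, 2 of the 10 genes were called at F6 against N2, in place of 1, and 842 genes in all, in place of 150. Over all genes the block called 172 at F21 against N2, in place of 21, 42 at F21 against F6, in place of 15, and 2832 over the 5 groups, in place of 1774. Since same-numbered libraries of hrde-1;HC125 and N2 correlated at -0.178, crossed numbers were tried after seeing the data. In that comparison they called 3 of the 10 genes and 2537 genes in all. The block by equal numbers called 2374 genes there and the fit without a block 1857, each with 3 of the 10 genes. Counts over all genes also moved in other alternatives, as from 53 to 256 in HC125 against N2 with no low-count filter and to 18 with only those 2 groups, and with no low-count filter to 1183 at F6 against N2, 662 at F21 against N2, 140 at F21 against F6 and 3013 over the 5 groups. DESeq2 called 97 in HC125, 543 at F6 and 94 at F21 against N2, and 39 at F21 against F6. Of 50 group means in CPM, 39 moved by less than their SD under scaling by library size alone. Depth limits alg-1, alg-2, alg-3 and alg-4 most, with as few as 6, 5, 2 and 3 counts in a library.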
